A study of Mus musculus with 8 samples.

Results

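Genes that mark granule cells of the cerebellum were followed in RNA sequencing of the mouse brain cortex. The group held 10 genes, Gabra6, Cbln1, Cbln3, Fat2, Zic1, Zic2, Zic4, En2, Cnpy1 and Grm4, taken by name from the 13996 genes with FPKM values, and all 10 were found once. They were chosen by their FPKM in these same mice, by the difference between diets and the spread among the normal mice, so both are described here without a test. The animals were C57BL/6 males, 4 per diet. From the age of 8 weeks until their cortexes were collected under ether at 16 weeks, one group ate conventional chow and the other a diet with 60% fat by weight. Every mouse gave 1 library from rRNA-depleted total RNA, the labels name no transgene or deletion, and they call the tissue cortex in all 8. The mice are called Normal 1 to 4 and HFD 1 to 4, as in the labels, where HFD is the high fat diet. Levels are FPKM, sequenced fragments scaled to transcript length and to the size of the library, which the authors deposited rounded to 0.1, so depth cannot be read from them. The sum of FPKM over all genes lay between 562431 and 639142 per mouse.

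Granule cells are small excitatory neurons of the cerebellum, and their axons, the parallel fibers, contact the dendrites of Purkinje cells. Gabra6 encodes a GABA-A receptor subunit known for its restriction to cerebellar granule cells, and Grm4 encodes a metabotropic glutamate receptor of parallel fiber terminals. Cbln1 is a secreted protein that organizes the synapses of parallel fibers on Purkinje cells, and Cbln3 is its partner in granule cells. Fat2 is a large cadherin of parallel fibers. Zic1, Zic2 and Zic4 are zinc finger transcription factors of granule cells that are also used in other parts of the brain, En2 is a homeobox factor of the midbrain and hindbrain, and Cnpy1 belongs to the canopy family. In whole tissue, fewer cells of a type cannot be told apart from less RNA per cell.

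In Normal 2 and Normal 3 the summed FPKM of the 10 genes was 237.5 and 332.1, in Normal 4 it was 79.9 and in Normal 1 it was 23.9. In high fat diet fed mice the sum lay between 20.7 and 24.3. The sum of Normal 1 therefore lay within the range of the HFD group, although single genes did not. Normal 1 was above every HFD mouse for Gabra6, Cbln3, Fat2, Zic1 and Cnpy1 and below every HFD mouse for Cbln1, Zic2 and Grm4. The 10 genes made up 0.0535% of all FPKM in Normal 3 and 0.00377% in Normal 1. All 10 genes had the order Normal 3, Normal 2, Normal 4, Normal 1, from highest to lowest. That order occurred in 7.22% of all genes.

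For Gabra6 (chromosome 11, 42306437 to 42321072 of GRCm38, minus strand), FPKM was 1.7, 46.5, 61.7 and 12.2 in Normal 1 to 4 and 0, 0.1, 0.1 and 0.2 in HFD 1 to 4. The diets did not overlap. On FPKM + 0.1, Normal 1, the lowest normal mouse, was 9 times the HFD mean, and Normal 3 was 309 times that mean. The mean was 30.5 ± 28.2 (SD, n = 4) against 0.1 ± 0.0816 (SD, n = 4). The log2 difference between the diets, HFD minus normal on log2(FPKM + 0.1), was -6.42 (standard error 0.96). Cnpy1 (chromosome 5, 28200819 to 28245806, minus strand) was at 1.1, 22.3, 33.5 and 7.3 in the normal mice and at 0, 0.1, 0.1 and 0.3 in the HFD mice, with a log2 difference of -5.50 (standard error 0.92). Gabra6 and Cnpy1 were each listed at 0 in HFD 1, and both depend on the added constant, at -4.04 and -3.28 with a constant of 1. The constant also moved the low genes Fat2, En2 and Zic4 by over 1.5 times, as given with their values.

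**Figure D1:**
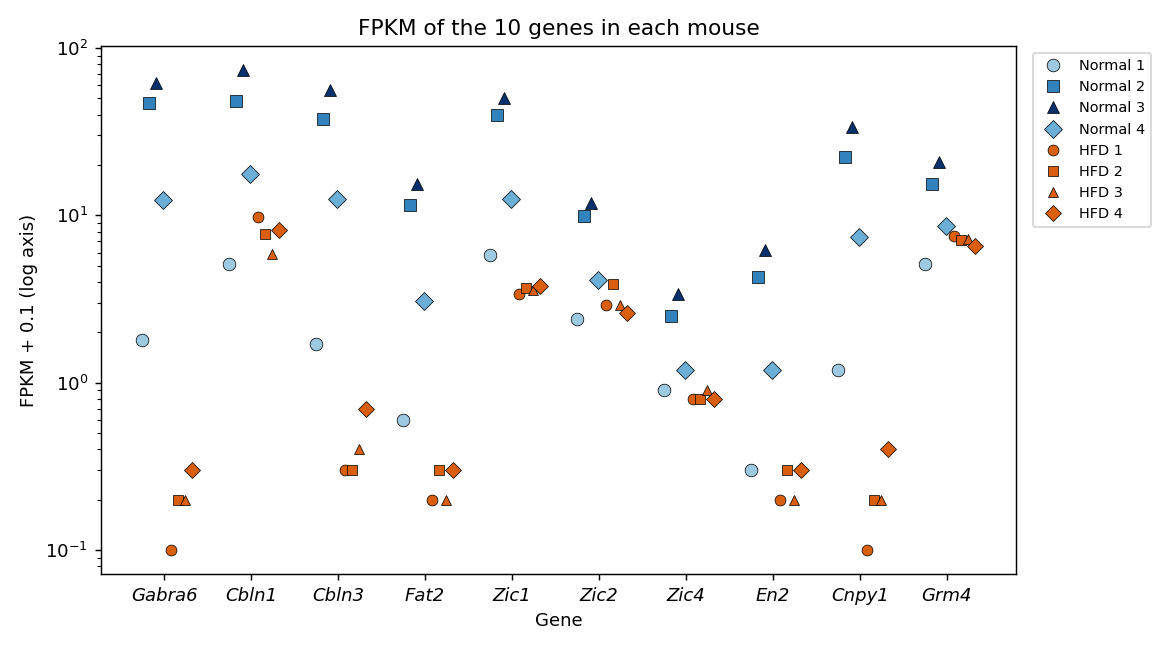
FPKM + 0.1 on a log axis (vertical) for each of the 10 genes (horizontal), with 1 point per mouse, blue for normal and orange for high fat diet fed mice, and a marker shape for each mouse number. Normal 2 and Normal 3 lie highest for all 10 genes, and Normal 1 lies lowest of the normal mice, level with an HFD point for Zic4 and En2 and below all of them for Cbln1, Zic2 and Grm4.

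The sequence before the start sites of Gabra6 and Cnpy1 is shown because these members had the lowest HFD levels and vary together among the normal mice. Promoter windows were found in the RefSeq table (GRCm38.p6) for 6 of the 10 genes, and the 250 bases upstream are printed 5′ to 3′ on the strand of the gene. The window of Gabra6 is chr11:42321073-42321322, and those of the 2 listed start sites of Cnpy1 are chr5:28245789-28246038 (distal) and chr5:28210169-28210418 (proximal), all on the minus strand. Capitals mark matches, on either strand, to motifs of factors known from granule cells or their lineage, which were the NFI half-site TTGGC, the full palindromic NFI site, the NeuroD E-box CAGATG, the Zic core CAGCAGG and the homeodomain core TAATTA. The full NFI site holds the half-site, and no other motif of the 5 lies within another.
Gabra6: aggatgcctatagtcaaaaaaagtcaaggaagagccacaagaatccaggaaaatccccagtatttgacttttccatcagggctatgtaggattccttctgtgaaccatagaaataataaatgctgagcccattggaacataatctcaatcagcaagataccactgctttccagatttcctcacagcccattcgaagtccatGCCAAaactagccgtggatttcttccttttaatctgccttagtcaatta
Cnpy1 distal: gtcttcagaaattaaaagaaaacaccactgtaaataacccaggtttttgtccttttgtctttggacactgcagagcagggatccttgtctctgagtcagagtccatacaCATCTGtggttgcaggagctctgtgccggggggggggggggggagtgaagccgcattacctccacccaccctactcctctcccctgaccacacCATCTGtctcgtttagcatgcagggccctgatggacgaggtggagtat
Cnpy1 proximal: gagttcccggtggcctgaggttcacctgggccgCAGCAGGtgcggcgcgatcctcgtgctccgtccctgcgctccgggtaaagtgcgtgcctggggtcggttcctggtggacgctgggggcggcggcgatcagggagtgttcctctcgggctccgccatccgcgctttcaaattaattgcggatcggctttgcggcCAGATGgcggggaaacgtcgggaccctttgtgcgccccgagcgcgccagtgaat
The Gabra6 window held 1 NFI half-site, a match found in 41.5% of 32841 promoter windows of this length. The distal Cnpy1 window held 2 matches to the E-box and the proximal window 1, and 14.4% of all windows held at least 1. The proximal window also held 1 Zic core, present in 8.44% of windows. The full NFI site (0.0365% of windows) and the homeodomain core (4.84%) were not in these windows. A match describes letters and not a bound site.

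Grm4 (chromosome 17, 27422387 to 27521403, minus strand) was the member with the smallest difference between diets. It had 5, 15.3, 20.6 and 8.6 FPKM in Normal 1 to 4 and 7.4, 7, 7.1 and 6.5 in HFD 1 to 4, so that Normal 1 was below every HFD mouse. The log2 difference was -0.62 (standard error 0.36), and it became 0.09 without Normal 2 and Normal 3, the normal mice with the highest levels of the 10 genes, an alternative chosen after seeing the data.

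The cerebellins differed from each other on the high fat diet. Cbln3 (chromosome 14, 55878913 to 55884392, minus strand) was at 1.6, 37.3, 56.1 and 12.5 in Normal 1 to 4 and ranged from 0.2 to 0.6 in the HFD mice. Cbln1 (chromosome 8, 87468405 to 87472609, minus strand) lay at 5, 48.4, 73.8 and 17.6 in the normal mice and at 9.7, 7.6, 5.8 and 8.1 in the HFD mice. Cbln3 had no overlap between diets and almost no HFD signal, whereas Cbln1 was readily measured on both diets and was lower in Normal 1 than in any HFD mouse. The log2 differences were -5.19 (standard error 0.93) for Cbln3 and -1.62 (standard error 0.69) for Cbln1. Leaving out Normal 2 and Normal 3 gave -3.54 and -0.29.

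Fat2 (chromosome 11, 55250609 to 55336564, minus strand) had FPKM values of 0.5, 11.4, 15.3 and 3 in the normal mice and 0.1 or 0.2 in each HFD mouse. Its diets did not overlap, and its log2 difference was -4.12 (standard error 0.87), or -2.36 with a constant of 1. At these HFD levels the rounding to 0.1 is as large as the differences between the mice.

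Among the transcription factors, En2 (chromosome 5, 28165694 to 28172166, plus strand) had 0.2, 4.2, 6.1 and 1.1 FPKM in the normal mice and 0.1 or 0.2 in the HFD mice, with Normal 1 equal to HFD 2 and HFD 4. Zic1 (chromosome 9, 91358058 to 91365810, minus strand) had 5.7, 39.9, 49.9 and 12.5 in the normal mice and 3.3, 3.6, 3.5 and 3.7 in the HFD mice, with no overlap. The HFD mice were thus uniform for Zic1, with an SD of 0.171 around a mean of 3.53. Zic2 (chromosome 14, 122475435 to 122479852, plus strand) had 2.3, 9.8, 11.8 and 4 in the normal mice and 2.8, 3.8, 2.8 and 2.5 in the HFD mice. Zic4 (chromosome 9, 91362413 to 91389348, plus strand) had 0.8, 2.4, 3.3 and 1.1 in the normal mice and 0.7 or 0.8 in the HFD mice. Normal 1 was below every HFD mouse for Zic2 and at the level of HFD 3 for Zic4. The log2 differences were -2.85 for En2 (standard error 0.82), -2.43 for Zic1 (standard error 0.58), -0.94 for Zic2 (standard error 0.45) and -1.08 for Zic4 (standard error 0.38). With a constant of 1 those of En2 and Zic4 were -1.43 and -0.66. The same omission gave -1.29, -1.24, -0.05 and -0.33.

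The HFD levels ran from 0 to 9.7 FPKM without a clear break. Gabra6, Cbln3, Fat2, En2 and Cnpy1 were between 0 and 0.6 FPKM in every HFD mouse, and Cbln1, Zic1, Zic2, Zic4 and Grm4 were between 0.7 and 9.7. The normal and HFD values did not overlap for 5 of the 10 genes, Gabra6, Cbln3, Fat2, Zic1 and Cnpy1, all with the normal mice higher. The share over all genes was 14.7%, and since this contrast was known when the genes were chosen, nothing is read from the count. Over the 10 genes the median log2 difference was -2.64, where the median of all 13982 genes within the filter was 0.0031. It was -1.27 without Normal 2 and Normal 3. With each mouse left out in turn it stayed between -3.36 and -2.11. The filter, which asks for no value of 0 and an average of 1 FPKM or more, kept 8 of the 10 genes and left out Gabra6 and Cnpy1.

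The spread among normal mice, which the choice of the genes also used, can be set beside that of other genes. The highest normal mouse was between 3.78 times (Zic4) and 34.3 times (Gabra6) the lowest, with a median of 17.6-fold on FPKM + 0.1. All genes within the filter had a median of 1.2-fold, and 0.637% of them, 89 genes, reached 4-fold. Of those 89 genes, 30 had the order 3, 2, 4, 1, including 7 members. Of the 46 protein-coding genes among the 89, 27 had that order, again with the 7 members included. Within the filter Cbln3 ranked 3, Fat2 ranked 4, En2 ranked 5 and Cbln1 ranked 9 of 13982 by this ratio. The HFD mice spread less, with a median of 1.5-fold and a highest value of 4-fold for Cnpy1, where values near 0 are rounded, and 0.472% of all genes reached 4-fold among the HFD mice. The range rests on Normal 1. Without it the median over the 10 genes was 4.32-fold, and without Normal 3 it was 11.9-fold.

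**Figure D2:**
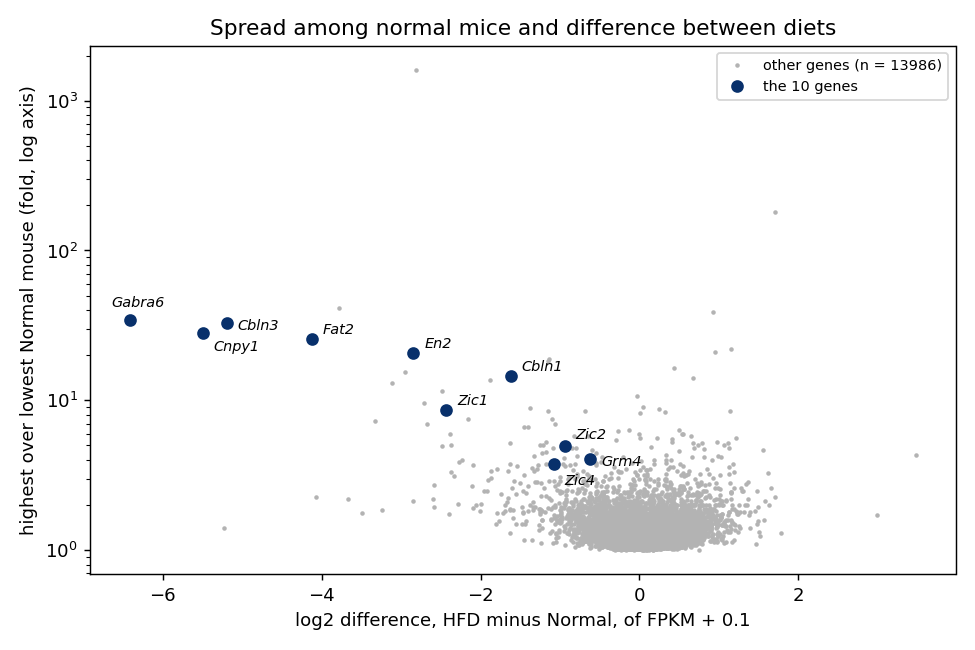
Ratio of the highest to the lowest normal mouse on FPKM + 0.1 (vertical, log axis) against the log2 difference HFD minus normal (horizontal) for every gene, with the 10 genes in dark blue and the other genes of the 13996 in grey. The 10 genes lie to the left of 0 and above the bulk of the other genes, with Gabra6, Cnpy1, Cbln3 and Fat2 farthest left at 25.7-fold to 34.3-fold.

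The normal mice were also compared as a percentage of Normal 3. Without any subtraction Normal 2 lay between 65.6% and 83.1% of Normal 3, Normal 4 between 18.0% and 41.7%, and Normal 1 between 2.76% (Gabra6) and 24.3% (Grm4). After the mean of the HFD mice was subtracted, the excess in Normal 2 was between 61.0% (Grm4) and 78.4% (Zic1) of that in Normal 3, with a median of 67.3%. In Normal 4 it was between 11.6% (Zic2) and 21.8% (Cbln3), with a median of 17.4%. In Normal 1 it was between -14.7% (Grm4) and 4.69% (Zic1), with a median of 2.30%. The percentages thus drew closer between genes for Normal 4, while those of Normal 2 and Normal 1 spread about as widely as before. Rounding of the FPKM limits these percentages most for Zic4, where the share of Normal 2 could lie between 61.9% and 68.3%. For Gabra6, with values far above the rounding, it lay between 75.2% and 75.5%, so Gabra6 and Cbln1 (61.5%) differed by more than rounding. Each mouse is 1 library, and no error between libraries of a mouse can be given.

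**Figure D3:**
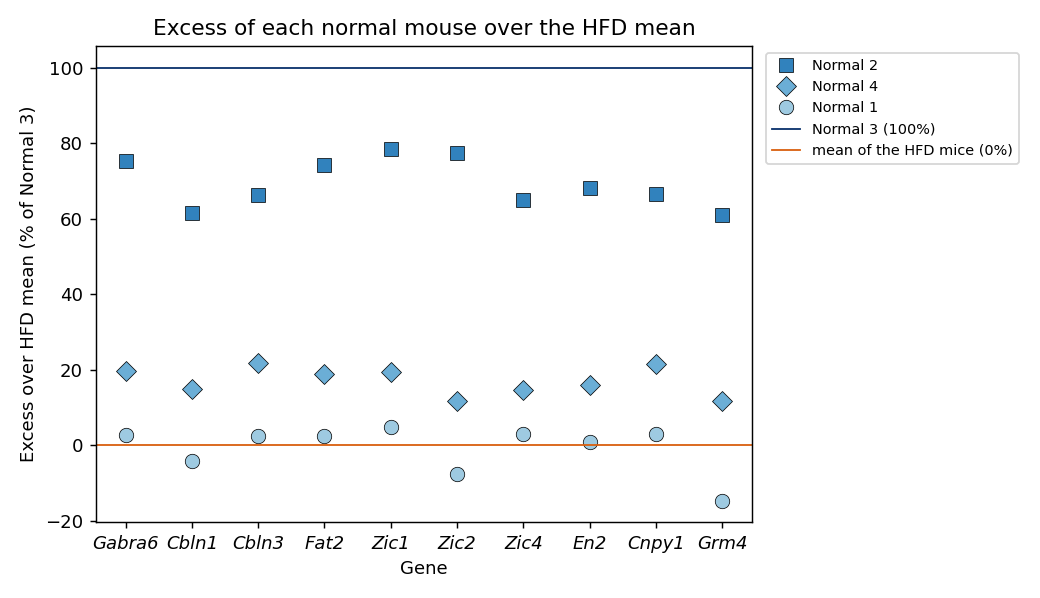
Excess of FPKM over the mean of the 4 HFD mice in Normal 1, 2 and 4 as a percentage of the excess in Normal 3 (vertical), for each of the 10 genes (horizontal). The points of Normal 2 lie between 61.0% and 78.4%, those of Normal 4 between 11.6% and 21.8%, and those of Normal 1 around 0%, from -14.7% to 4.69%.

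Other genes of the cerebellum were compared between diets with limma. Genes were called when the adjusted p was below 0.05 and FPKM + 0.1 differed by more than 1.5-fold in either direction. A gene called lower could thus fall by less than 50%. Over all genes tested, 2.9% were called lower and 4.23% higher on the high fat diet. Of 18 other granule cell genes listed, 14 had values. Among these 14, 7 were called lower and 0 higher, and 7 did not pass the test or the minimum change. The median log2 difference was -0.93. The called genes were Meis1, Pax6, Calb2, Pde1c, Grin2c, Gabrd and Cadps2. Of those not called, Etv1 was higher on the high fat diet (log2 difference 0.27), and Reln (-0.02) and Kcnc1 (-0.06) were nearly level. Neurod1, Mab21l1, Chn2 and Cdh15 were lower, between -1.88 and -0.88. Calb2, the calcium-binding protein calretinin, averaged 50.5 ± 32.9 (SD, n = 4) against 8.88 ± 1.82 (SD, n = 4) on the high fat diet, a log2 difference of -2.16 (standard error 0.54, adjusted p = 0.0142 from limma). Meis1, a homeobox factor, had a log2 difference of -1.87 (standard error 0.32, adjusted p = 0.00297 from limma). It averaged 0.925 FPKM on the high fat diet, so it passed the filter only through the normal mice. A gene under 1 FPKM on that diet could hardly be called higher, here and in the lists below. For such genes the share over all genes is no yardstick. Neurod1, a helix-loop-helix factor of granule cells, was 5.4, 26.3, 36.7 and 11.3 in Normal 1 to 4 and ranged from 5.2 to 6.5 in the HFD mice, and it did not pass (adjusted p = 0.0538 from limma). Gabrd, the delta subunit that joins Gabra6 in receptors outside the synapse, ranged from 37 to 45.4 in the normal group and from 25 to 31.2 in the HFD group, with a normal range of 1.23-fold that the 10 genes did not share. Without Normal 2 and Normal 3, 1 of the 14 genes was called lower (Meis1), and without Normal 1 it was 11.

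Purkinje cells and Bergmann glia are the partners of granule cells in the cerebellar cortex. Of 18 listed Purkinje cell genes 13 had values. Of these 13, 6 were called lower (Arhgef33, Car8, Pcp4, Calb1, Rgs8 and Foxp2) and 0 higher, with a median log2 difference of -0.81. Car8, a Purkinje cell protein related to carbonic anhydrases, was 5, 63.2, 78.3 and 15.6 in Normal 1 to 4 and between 2.8 and 3.5 in the HFD mice (log2 difference -2.95, standard error 0.73, adjusted p = 0.0143 from limma). Arhgef33 was 0.9, 9.5, 13 and 2.7 in Normal 1 to 4 and ranged from 0.2 to 0.9 in the HFD mice (log2 difference -3.11, standard error 0.77, adjusted p = 0.0137 from limma). With an average of 0.475 on the high fat diet, Arhgef33 passed the filter only through the normal mice. The order and proportions of Car8 were close to those of the 10 genes, with an excess in Normal 2 of 79.9% and in Normal 4 of 16.5% of that in Normal 3. Pcp4, a calmodulin regulator that striatal and cortical neurons also express, differed in this respect, at 525.2, 577.6, 532.4 and 384.3 in Normal 1 to 4 and from 176.3 to 192.2 in the HFD mice. Without Normal 2 and Normal 3, 3 of the 13 were called lower, and without Normal 4 it was 10. A2m, a protease inhibitor, was 1.4, 6.1, 7.3 and 2 in Normal 1 to 4 and at most 0.6 in the HFD mice (log2 difference -2.49, standard error 0.47, adjusted p = 0.0045 from limma), and Fabp7, a fatty acid binding protein of glia, had a log2 difference of -1.34. Of 7 listed Bergmann glia genes 6 had values. A2m and Gdf10 averaged 0.525 and 0.8 on the high fat diet and passed the filter only through the normal mice. Of the 6 genes, 3 were called lower (A2m, Fabp7 and Gdf10) and 0 higher, with a median log2 difference of -0.96. Without Normal 2 and Normal 3, 2 were called. All 6 had the order 3, 2, 4, 1, as did 12 of the 14 granule cell genes and 8 of the 13 Purkinje cell genes. Of 9 listed genes of cerebellar interneurons and unipolar brush cells 5 had values. Among these 5 genes, 2 had that order, where 7.22% of all genes did. Of these 5 genes, Pvalb was called lower and Grm2 higher, with a median log2 difference of 0.01. Neither was called without Normal 2 and Normal 3, and the call of Pvalb was also lost without Normal 2, Normal 3, HFD 1, HFD 2 or HFD 4.

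Markers of other regions also differed between the mice. Striatal neuron genes were highest in Normal 1, with a summed FPKM of 537.2 against 447.9, 424.8 and 311.5 in Normal 2 to 4 and 130 to 139 in the HFD mice, and 11 of 12 were called lower. The largest changes among them were those of Adora2a (-4.07) and Drd2 (-3.67), receptors of the indirect pathway, in log2 difference. None of the 12 had the order 3, 2, 4, 1. The 9 thalamic neuron genes with values summed to 53.2, 120.6, 104.5 and 41.6 in Normal 1 to 4 and to between 33.3 and 44.3 in the HFD mice. Normal 2 and Normal 3 were highest, as for the 10 genes, and 1 of the genes (Ntng1) had the order 3, 2, 4, 1. Of 8 tested, 3 were called lower (Prkcd, Synpo2 and Plekhg1), 1 without Normal 2 and Normal 3, and 6 without Normal 4. Genes of the olfactory bulb were highest in Normal 4, at 135.5 against 77 to 98.9 in the other normal mice and 54.1 to 69.6 in the HFD mice, with 2 of 6 called lower (Th and Synpr) and 4 without Normal 2 and Normal 3. Adora2a, Drd2 and Th averaged 0.45, 0.45 and 0.525 on the high fat diet and passed the filter only through the normal mice. Whether these regional levels have a part in the values of the 10 genes was not tested.

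Levels of 12 genes of cortical projection neurons were set beside the cortex label. All 12 had values in every mouse, as nearly all genes did, so this alone does not check the label. Their summed FPKM was 491.3 and 515.1 in Normal 1 and Normal 4, 371.8 and 348.8 in Normal 2 and Normal 3, and 559 to 656.2 in the HFD mice. The mice with the highest levels of the 10 genes thus had the lowest sums of these. Slc17a7 made up the largest part of the sums, at 290.4 in Normal 1 and 209.5 in Normal 3. Of the 12 genes, 5 were called higher in HFD mice (among them Fezf2, Tbr1, Cux2 and Emx1) and 0 lower, and 3 were called higher without Normal 2 and Normal 3. Meningeal fibroblasts can express Zic1, and of 7 genes of these cells Col1a1 was called lower and 0 higher. The summed level of the 7 genes was 26.6 to 35.8 in the normal mice and 25.7 to 43.2 in the HFD mice, which overlap. Choroid plexus genes summed to 346 to 731.4 in the normal mice and to 23 to 950.6 in the HFD mice, with 2 of 6 called lower (Folr1 and Clic6). HFD 4 held the 950.6, and without it 6 were called. Without Normal 1, 2 or 3 or HFD 1, 2 or 3 it was 0. The list of hindbrain position genes had no gene with values among those used here.

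**Figure D4:**
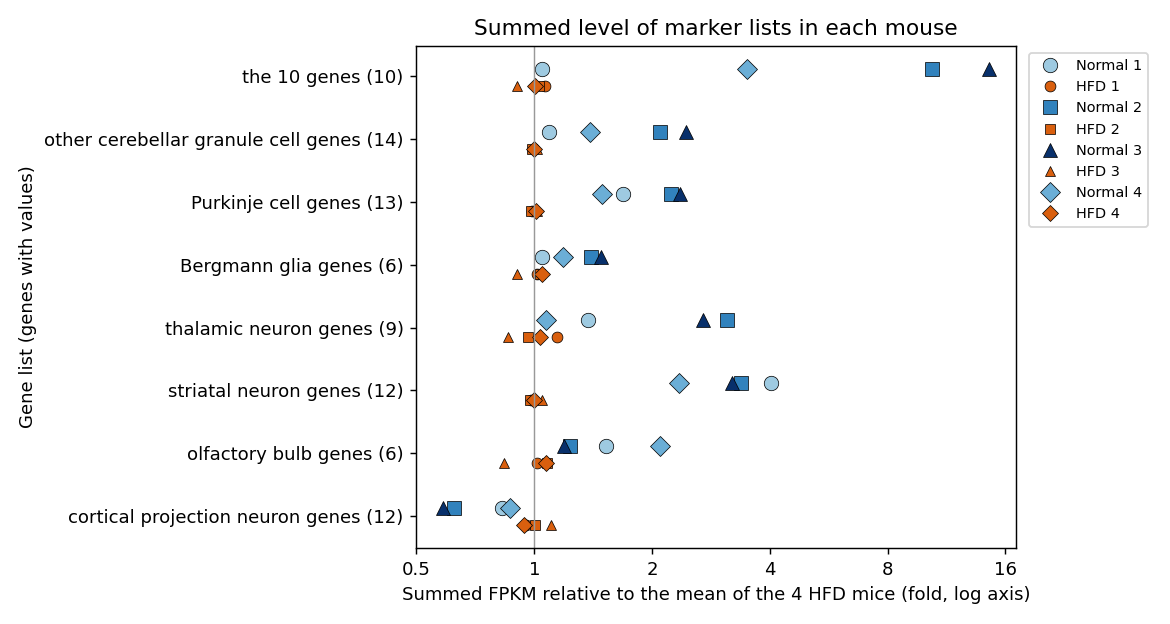
Summed FPKM of each gene list relative to the mean of the 4 HFD mice (horizontal, log axis), with 1 point per mouse, blue for normal and orange for HFD. The 10 genes spread from 1.04-fold in Normal 1 to 14.5-fold in Normal 3, striatal neuron genes from 2.34-fold in Normal 4 to 4.04-fold in Normal 1, and cortical projection neuron genes from 0.586-fold in Normal 3 to 0.866-fold in Normal 4.

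Relatives of the 10 genes, such as other cerebellins and cadherins, were examined next. Of 19 family members with values, Fat1 was called lower and Grm2 higher, and the median log2 difference was -0.08. Fat1, a cadherin of the family of Fat2, was 10.4, 17.1, 20.5 and 13 in Normal 1 to 4 and from 8.8 to 9.6 in the HFD mice (log2 difference -0.68, standard error 0.18, adjusted p = 0.0163 from limma). Cbln2, another cerebellin, had a log2 difference of -0.27 (standard error 0.15, adjusted p = 0.199 from limma). That of Cbln4, also a cerebellin, was 0.32 (standard error 0.15, adjusted p = 0.126 from limma). Of 13 partners, Gabrd was called lower and 0 higher, with a median of -0.04. Neither Fat1, Grm2 nor Gabrd met both criteria without Normal 2 and Normal 3. Without Normal 3 the call of Fat1 was lost, and without HFD 1 that of Gabrd. Without Normal 1, or without Normal 4, 2 family members and 2 partners were called lower.

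Genes with a pattern most like that of the 10 were sought among 10402 genes that reached 5 FPKM in a mouse. Each gene was centered on its mean of log2(FPKM + 0.1) over the 4 normal mice and compared with the median profile of the 10 by the root mean square difference. The nearest was Car8 at 0.157, followed by Mab21l1 (0.169), Arhgef33 (0.177), Cdh15 (0.238), Baiap3 (0.392), Calb2 (0.485), RP23-433F5.1 (0.502), Neurod1 (0.543), Il16 (0.618) and Inadl (0.689). The members themselves lay between 0.116 (Cbln1) and 0.874 (Zic4) from their own median. Of these 10 neighbors in pattern, 6 were on the granule or Purkinje cell lists, which held 14 and 13 genes with values. Called lower on the high fat diet were 4, where 2.9% of all genes were. The members were chosen by this same spread, and the lists with earlier results of these data known, so nothing is read from either count. Over all 8 mice Car8 was again nearest, at 0.237, and A2m, Il16, Calb2, Cdh15, Homer3, Arhgef33, Kcng4, Pld5 and Plekhd1 followed, between 0.361 and 0.596. Such likeness is a description over 4 or 8 mice.

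Several members are neighbors in the genome. Zic1 and Zic4 lie on opposite strands and overlap by 3398 bp in GENCODE M21, and En2 and Cnpy1 are separated by 28652 bp on chromosome 5. The sources used here do not state whether reads were assigned by strand, so in the shared bases reads of Zic1 and Zic4 cannot be told apart. The lincRNA RP23-433F5.1 (chromosome 8, 87460469 to 87525554, plus strand) covers all 4205 bp of Cbln1 on the other strand. It was at 1.4, 8.9, 9.9 and 3 FPKM in Normal 1 to 4 and at 1.8, 1.8, 1 and 1.8 in the HFD mice, in the order of the 10 genes, and the same limit on strand applies. Its log2 difference of -1.45 did not pass (adjusted p = 0.0671 from limma). In all, 15 genes with values lay within 100 kb of a member, and 0 of these were called by limma in either direction, where 7.13% of all genes were. An adjusted p below 0.05 with a change under the minimum was found for 5 of them, Gabrb2, Nynrin, Slc36a1, Insig1 and Nudt3. Nynrin and Slc36a1 were higher on the high fat diet (log2 differences 0.41 and 0.47). Gabrb2, Insig1 and Nudt3 were lower (-0.14, -0.39 and -0.35). The share of all genes by adjusted p alone is not given here, so nothing is read from this count. The order 3, 2, 4, 1, without ties, was found in 7 of the 15, where 7.22% of all genes had it. Only RP23-433F5.1 of the 15 reached 4-fold between the highest and the lowest normal mouse. Sparc, 57935 bp from Fat2, had 66.5, 162.4, 171.6 and 77.5 in the normal mice and 57.5 to 71.9 in the HFD mice (adjusted p = 0.0642 from limma). Khnyn, whose start site is 555 bp from that of Cbln3 on the other strand, had 4.7, 7.2, 9.3 and 5.8 in the normal mice and 5.8 to 6.9 in the HFD mice, with a log2 difference of -0.02 (adjusted p = 0.934 from limma). Gabrb2, the nearest gene with values to Gabra6, spread by 1.07-fold among the normal mice.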

How the data were processed

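RNA was sequenced from the cortexes of 8 mice, 4 per diet, with stranded paired-end libraries. Per the paper and the labels, the authors ran Trimmomatic for trimming and STAR for alignment to mm10, then made FPKM with Cuffnorm on GENCODE M17 (GRCm38.p6). The sources used here give no tool versions. The deposited FPKM are normalized for length and depth and rounded to 0.1, so steps of single reads cannot be recovered, depth is unknown and no counting interval is given. From these values log2(FPKM + 0.1) was fitted by limma (version 3.58.1, R version 4.3.3), allowing a trend of the variance. The two-sided p-values were adjusted after Benjamini and Hochberg for 13982 genes, those without a 0 and averaging 1 FPKM or more. The differences of the 10 genes come from the same fit over all 13996 genes, without p-values. Alternatives were constants of 0.5 and 1, no filter, a mean FPKM of at least 5, rescaling by median ratios, no variance trend, an unadjusted p below 0.005, the replicate number as a block, and each mouse left out. On data simulated over the 13982 genes, the fit found 90 of 100 genes set to 2-fold and 95 of 100 set to 3-fold, and it called 4 genes left unchanged. Each gene was simulated independently, with the same SD on both diets. The simulation therefore does not cover levels that shift together across many genes in single mice, or a spread that differs between diets. Tables and figures used Python 3.11.15, pandas 2.3.3 and matplotlib 3.10.9.

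The members and the 13 gene lists were chosen with earlier results of these data known. The genes named were the members, genes of the lists and the 10 genes nearest in pattern over 4 and over 8 mice. The 5 genes outside the members with the widest range among normal mice were also named. Genes nearest in pattern or widest in range had to reach 5 FPKM in a mouse. Neighbors in the genome were named by their position beside the members. List genes without a row in the values were not analysed here. Only 14 of the 13996 genes with values fell outside the filter, so genes low in every mouse were mostly absent from the values. Coordinates are from GENCODE M21 on GRCm38, a later release than M17. Western blots, PCR, Salmon values and circRNAs were not used here. Some genes of the lists are counted but not reported here by name.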

Additional observations from a re-analysis of the deposited data

Results flagged for a closer look

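Of the 20 sets of 4 values of the 10 genes, Zic4 in the high fat diet fed mice held a mouse far from the others, HFD 3 at 0.8 FPKM, while the other 3 mice had 0.7. The gap is the rounding step of the values, and about 1 in 20 such sets is marked by chance.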

How the results depend on the processing

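Depth is unknown and rounding to 0.1 limits every value under about 1 FPKM, including every HFD value of Gabra6, Cbln3, Fat2, Zic4, En2 and Cnpy1. The log2 differences of the 10 genes kept their sign under the constants of 0.5 and 1, rescaling by median ratios and each mouse left out. Without Normal 2 and Normal 3, chosen after seeing the data, that of Grm4 reversed to 0.0905. Of 591 values recomputed, 532 were labelled the same, 58 moved and 1 reversed. Counts were taken as the same when equal to the main count or within 1.5-fold of it. Those labelled the same include counts of 0 that stayed 0, such as Purkinje cell genes higher on the high fat diet. The tally is therefore not a measure of stability. Log2 differences were judged by their sign and spread, so a large loss of size could still be labelled the same. Examples without Normal 2 and Normal 3 are Zic2, from -0.94 to -0.05, and Cbln1, from -1.62 to -0.29. With a constant of 1, En2 went from -2.85 to -1.43 and kept that label. The cause of these moves was not tested.

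Over all genes, 406 were lower and 591 higher on the high fat diet. With a constant of 1 these counts were 268 and 335, the median range of the 10 genes was 9.23-fold, meningeal genes lower were 0 and choroid plexus genes lower were 1, as with a constant of 0.5. With a mean FPKM of at least 5, which tests fewer genes, they were 172 and 250 over all genes, and those lower were 4 for granule cells, 1 each for Bergmann glia, thalamus and olfactory bulb, and 0 for meninges and choroid plexus. Without a variance trend, or with an unadjusted p below 0.005, 0 interneuron genes and 0 choroid plexus genes were lower. Without Normal 2 and Normal 3, 239 genes were lower and 365 higher over all genes, and those lower were 1 for granule cells, 3 for Purkinje cells, 1 for thalamus, 4 for olfactory bulb and 0 for interneurons, choroid plexus, family members and partners. Those higher were 3 for cortical projection neurons, 1 for meninges and 0 for interneurons and family members.

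With each mouse left out, the genes lower were 5 to 11 for granule cells, 4 to 10 for Purkinje cells, 2 to 4 for Bergmann glia, 0 to 1 for interneurons, 2 to 6 for thalamus, 0 to 6 for choroid plexus, 0 to 2 for family members and 0 to 2 for partners. Those higher were 0 to 1 for meninges. The median range of the 10 genes was 4.32-fold to 17.6-fold, and over all genes 312 to 487 were lower and 459 to 709 higher.

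With the replicate number as a block, 357 genes were lower and 539 higher over all genes, and 0 choroid plexus genes were lower. The sources used here state no pairing of mice by number. Deviations of mice with the same number correlated at -0.109 to -0.0275 across genes, which does not settle whether they shared any handling.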

Other observations

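Among genes outside the 10 that reached 5 FPKM in a mouse, the 5 with the widest range among normal mice were Rnu3a, Bc1, Pmch, Pagr1a and Avp. Pmch, the precursor of melanin-concentrating hormone of the hypothalamus, had 0.5, 24.7, 17.8 and 2.5 FPKM in Normal 1 to 4 and 0.1 to 1.1 in the HFD mice. Avp, which encodes vasopressin, had 0.8, 1.2, 5.4 and 0.2 in the normal mice and 0.4, 0.1, 0.5 and 1.2 in HFD 1 to 4. Both are hormone genes with values that differ between single mice. Rnu3a, a small nucleolar RNA whose name is shared by 2 genes, ranged from 0 to 160.1 in the normal mice. Bc1, a short noncoding RNA of neurons, was 10.6 in Normal 4 against 711.4 to 3223.1 in the other 7 mice. Pagr1a was 9.3, 2.5, 0.4 and 2.2 in the normal mice.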
